A study of Mus musculus with 12 samples.

Results

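The T cell receptor alpha chain (TRA) repertoires of CD8+ T cells from tumor-draining lymph nodes (TDLN) were compared between KO and WT mice. The study holds 12 libraries in 4 groups of 3, and the 6 taken from TDLN, 3 KO and 3 WT, were chosen by the tissue and genotype in their labels. The KO TDLN libraries came from mice with a knockout of TrIP restricted to CD8 cells and carry the numbers 1, 2 and 3. The WT TDLN libraries carry the numbers 1, 3 and 4. Mice of both genotypes had been injected with MC38 cells, a mouse colon carcinoma line, and nodes were taken on day 10. In both groups the sorted cells were CD8+ and bound an Rpl18 tetramer, a reagent that stains T cells whose receptor recognises an Rpl18 peptide on an MHC molecule. The driver of the deletion, the strain and the age of the mice are not given in the sources used here. Whether each library came from a separate mouse is not stated either, so the tests measure only the spread between these libraries, which may be technical. The knockout itself could not be checked, because no expression values of the targeted gene were analysed here.

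TrIP, the product of Pik3ip1, is a membrane protein that restrains PI3 kinase signalling downstream of the T cell receptor. The alpha chain of that receptor is assembled in each developing T cell by joining a V segment (TRAV) to a J segment (TRAJ), with bases trimmed and added at the joint. The joint encodes the third complementarity-determining region (CDR3), the loop that lies over the bound peptide. All descendants of a cell keep its rearrangement, so a clone that divides takes a growing share of the TRA reads. In bulk RNA a larger share from more cells of a clone and from more receptor RNA per cell cannot be told apart. A clonotype is defined here by its CDR3 bases together with its TRAV and TRAJ, and its share is a percent of the productive (in-frame, complete) TRA reads of its library.

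The CDR3 sequences below, read from the deposited table and written 5′ to 3′, belong to large clonotypes that resembled each other across libraries. The exception is the fifth set, whose clonotypes come from WT TDLN 1 alone. The alpha chain locus lies on mouse chromosome 14. Capitals mark the bases that differ within a set. The first set joins TRAV3-3 to TRAJ17 and held the largest clonotypes of KO TDLN 1, KO TDLN 2 and WT TDLN 3.
KO TDLN 1, TRAV3-3 with TRAJ17: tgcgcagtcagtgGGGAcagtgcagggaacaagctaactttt
KO TDLN 2, TRAV3-3 with TRAJ17: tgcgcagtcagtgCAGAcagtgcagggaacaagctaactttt
WT TDLN 3, TRAV3-3 with TRAJ17: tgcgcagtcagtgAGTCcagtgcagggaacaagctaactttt
The second set joins TRAV16 to TRAJ9, and its first and last members encode the same amino acids.
KO TDLN 2, TRAV16 with TRAJ9: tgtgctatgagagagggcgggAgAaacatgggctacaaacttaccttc
KO TDLN 3, TRAV16 with TRAJ9: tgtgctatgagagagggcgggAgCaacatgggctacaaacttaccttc
WT TDLN 3, TRAV16 with TRAJ9: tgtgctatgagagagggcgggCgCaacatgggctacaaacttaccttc
The third set joins TRAV16 to TRAJ32, with 1 amino acid sequence in both libraries.
KO TDLN 1, TRAV16 with TRAJ32: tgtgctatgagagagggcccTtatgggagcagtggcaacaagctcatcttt
WT TDLN 1, TRAV16 with TRAJ32: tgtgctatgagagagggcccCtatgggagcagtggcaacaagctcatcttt
The fourth set joins TRAV7-6 to TRAJ42 and was found in KO TDLN 3 and WT TDLN 3.
KO TDLN 3, TRAV7-6 with TRAJ42, larger: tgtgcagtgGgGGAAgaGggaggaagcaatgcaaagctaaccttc
KO TDLN 3, TRAV7-6 with TRAJ42, smaller: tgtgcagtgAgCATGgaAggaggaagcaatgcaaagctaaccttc
WT TDLN 3, TRAV7-6 with TRAJ42: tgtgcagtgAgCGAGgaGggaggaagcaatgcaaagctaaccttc
The fifth set joins TRAV7-2 to TRAJ42 and holds the 2 largest clonotypes of WT TDLN 1, which encode the same amino acids.
WT TDLN 1, TRAV7-2 with TRAJ42, larger: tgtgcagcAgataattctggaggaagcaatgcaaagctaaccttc
WT TDLN 1, TRAV7-2 with TRAJ42, smaller: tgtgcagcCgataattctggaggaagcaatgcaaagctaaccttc
The last set shows large TRAJ7 clonotypes, all from WT libraries. They share the run of bases at their TRAJ7 end, and the differing bases lie before it. The WT TDLN 4 clonotype and the second one of WT TDLN 3 both use TRAV6-7.
WT TDLN 4, TRAV6-7 with TRAJ7: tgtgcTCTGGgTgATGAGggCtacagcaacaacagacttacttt
WT TDLN 1, TRAV6-6 with TRAJ7: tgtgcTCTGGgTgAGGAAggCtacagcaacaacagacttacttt
WT TDLN 3, TRAV7-4 with TRAJ7: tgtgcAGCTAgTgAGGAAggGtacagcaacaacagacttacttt
WT TDLN 3, TRAV6-7 with TRAJ7: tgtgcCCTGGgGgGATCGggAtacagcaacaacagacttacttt
The deposited TRAJ7 sequences end 1 base short of a codon, so their last amino acid was completed with that base restored.

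Productive TRA reads numbered 40483, 63097 and 40077 in KO TDLN 1, 2 and 3, against 82307, 48463 and 15828 in WT TDLN 1, 3 and 4. No molecular identifiers are described for these amplified libraries, so all intervals and limits below cover counting error only. The run log notes 4 of the 6 libraries as timed out, namely KO TDLN 1 and 2 and WT TDLN 1 and 3. Rearrangements of 2 other T cell types that the gate could admit, TRAV11 with TRAJ18 of invariant NKT cells and TRAV1 with TRAJ33 of MAIT cells, had 0 reads in each library, which allows shares of up to 0.00365% to 0.0190%. Gamma-delta T cell and B cell chains were not analysed here. By the Morisita-Horn index of nucleotide clonotypes, which runs between 0 and 1, KO TDLN 3 overlapped at 0.410 with WT tumor 3 and WT TDLN 3 at 0.398 with KO tumor 3. Their overlap with the tumor library of their own genotype and number was 0.000630 for KO TDLN 3 and 0.000798 for WT TDLN 3. The other KO TDLN libraries also overlapped most with a WT tumor library. KO TDLN 1 reached 0.110 with WT tumor 2 and at most 0.00292 with a KO tumor library. KO TDLN 2 reached 0.0492 with WT tumor 2 and at most 0.000177 with a KO tumor library. WT TDLN 1 overlapped most with WT tumor 4, at 0.103, and WT TDLN 4 with WT tumor 2, at 0.000323. Whether the genotype labels of KO TDLN 3 and WT TDLN 3, or those of other TDLN or tumor libraries, were exchanged was not tested. With the labels of KO TDLN 3 and WT TDLN 3 exchanged, every separation of the groups given below would be lost. Examples are TRAV16 at 29.3% and 5.60% and TRAJ7 at 0.938% and 15.8% in these libraries. Any exchange of a KO with a WT library would do the same, so the loss is not particular to this pair. Leaving libraries out cannot undo a separation, so only sizes are given without this pair.

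A few large clones held much of the TRA reads in both genotypes, and the KO libraries resembled each other in clone sizes more than the WT libraries did. Clonotypes of 10% or more took 53.7%, 56.0% and 43.6% of reads in KO TDLN 1, 2 and 3, against 44.8%, 24.0% and 77.5% in WT TDLN 1, 3 and 4. The 3 KO values lay inside the range of the WT values, with means of 51.1% ± 6.58 in KO and 48.8% ± 27.0 in WT (SD, n = 3 each). The exact two-sided permutation test of the difference of 2.35 percentage points gave p = 1.0. With 3 libraries a side, 20 arrangements are possible and the smallest p is 0.1. All 17 single values compared here had an adjusted p of 1.0 by the Benjamini-Hochberg method. Clonotypes of 1% to 10% held 24.5%, 24.1% and 32.6% of KO reads and 39.8%, 47.9% and 8.07% of WT reads (exact p = 0.9). Those under 1% held 21.9%, 19.9% and 23.7% of KO reads and 15.4%, 28.1% and 14.4% of WT reads (exact p = 0.6).

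**Figure D1:**
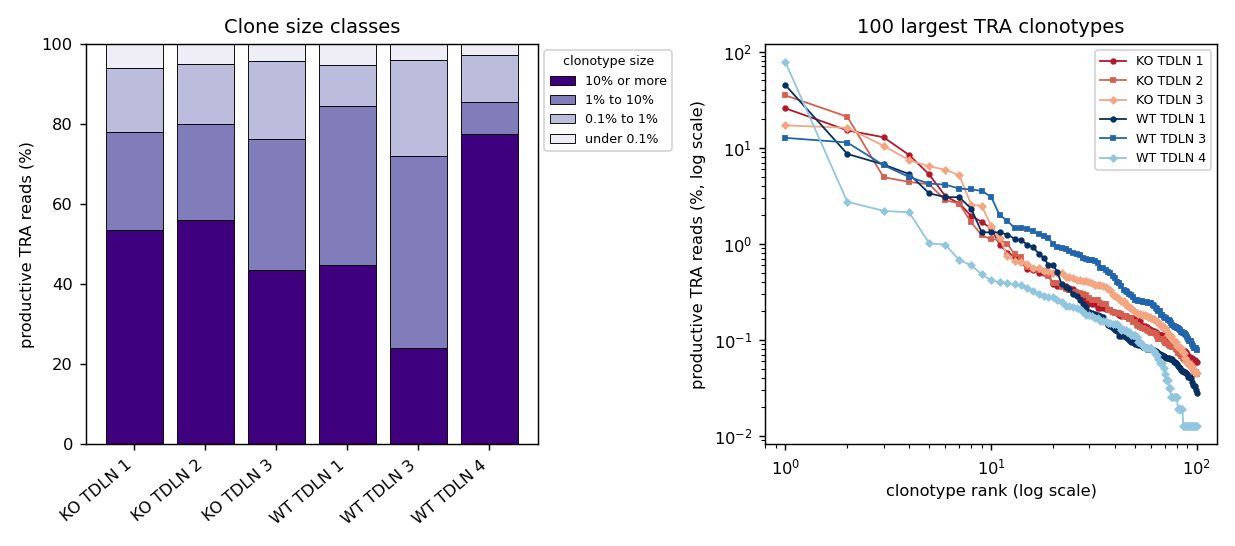
Left, stacked bars give the percent of productive TRA reads in 4 classes of clonotype size for each TDLN library. Right, the share of each of the 100 largest clonotypes against its rank, both on log scales, with 1 line per library. The KO lines start between 17.1% and 35.0%, while WT TDLN 4 starts highest, at 77.5%, and drops to 2.74% at the second clonotype.

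The top of the spectrum differed most among the WT libraries. The largest KO clonotypes took 25.7% (95% Wilson interval 25.3% to 26.1%) of KO TDLN 1, 35.0% (34.7% to 35.4%) of KO TDLN 2 and 17.1% (16.7% to 17.4%) of KO TDLN 3. They were 1.70, 1.67 and 1.06 times the size of the second clonotype. In WT TDLN 1 the largest took 44.8% (44.4% to 45.1%), 5.20 times the second. The profile of WT TDLN 3 was flatter, with a largest clonotype of 12.7% (12.4% to 13.0%), 1.12 times the second. In WT TDLN 4 the largest, a TRAV6-7 with TRAJ7 rearrangement, took 77.5% (76.9% to 78.2%) and was 28.3 times the second. The fewest clonotypes that together held most of the reads numbered 3, 2 and 4 in KO TDLN 1, 2 and 3, and 2, 8 and 1 in WT TDLN 1, 3 and 4.

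Below the top clone the number of sizable clones was also more uniform among KO libraries. Clonotypes of 1% or more numbered 10, 11 and 11 in KO TDLN 1, 2 and 3, against 14, 20 and 5 in WT TDLN 1, 3 and 4. Those of 0.1% or more numbered 72, 68 and 76 in KO and 47, 91 and 51 in WT (exact p = 0.5). The effective number of clonotypes, which is the exponential of the Shannon entropy and counts equally sized clones giving the same diversity, was 22.0, 16.7 and 27.1 in KO and 14.2, 46.5 and 4.09 in WT. Its means were 22.0 ± 5.22 in KO and 21.6 ± 22.1 in WT (SD, n = 3 each, exact p = 1.0). The SD among WT libraries thus exceeded that among KO libraries, a difference in spread that was not tested.

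Leaving out the largest clonotype of each library, an alternative chosen after the values were seen, separated the genotypes. The effective number then was 29.8, 28.1 and 30.8 in KO TDLN 1, 2 and 3, against 35.1, 52.5 and 49.6 in WT TDLN 1, 3 and 4. Clonotypes of 10% or more of the remaining reads took 48.9%, 32.3% and 32.0% in KO and 27.7%, 13.0% and 12.2% in WT. Every KO library lay below every WT library in the first value and above in the second. The differences were -16.1 clonotypes and 20.1 percentage points. Each gave the smallest possible exact p of 0.1, unadjusted, which is no evidence of a difference for a setting chosen in this way. The clonotype left out held between 12.7% and 77.5% of the reads of a library. With all clonotypes kept, the groups overlapped in both values. With all clonotypes kept, 3, 2 and 3 clonotypes reached 10% in KO TDLN 1, 2 and 3, against 1, 2 and 1 in WT TDLN 1, 3 and 4.

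The authors' metrics give the beta chain (TRB) as a second view of the same libraries. Their number of different TRB sequences was 2164, 2032 and 3200 in KO TDLN 1, 2 and 3, and 2096, 2435 and 2198 in WT TDLN 1, 3 and 4 (exact p = 0.9). The top TRB clone took 46.1%, 57.3% and 23.5% of KO and 56.8%, 17.3% and 89.9% of WT libraries. The order of the libraries by top TRB clone and by largest TRA clonotype matched at both ends, with WT TDLN 4 highest and WT TDLN 3 lowest. The depth behind the TRB values is not stated.

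Among V segments, TRAV16 was the one with the largest mean share in KO, and its groups did not overlap. It took 23.2%, 29.6% and 29.3% of reads in KO TDLN 1, 2 and 3, against 9.43%, 5.60% and 1.16% in WT TDLN 1, 3 and 4. Means were 27.4% ± 3.60 in KO and 5.40% ± 4.14 in WT (SD, n = 3 each). The log2 fold change of KO over WT was 2.34, and the quasi-likelihood test of edgeR, with Benjamini-Hochberg adjustment over all TRAV segments tested, gave an adjusted p of 0.911. The difference therefore did not pass the test. Of the 47 segments, 3 had every KO library above every WT library (6.38%) and 3 had every KO library below (6.38%), so TRAV16 is among 6 segments without overlap.

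The TRAV16 share came from several clones. In KO TDLN 1 the largest TRAV16 clonotype, joined to TRAJ32, took 15.1%, and the other TRAV16 clonotypes took 8.09%. In KO TDLN 2 and 3 the largest, joined to TRAJ9 in both, took 20.99% and 17.1%, and the others 8.64% and 12.2%. The other TRAV16 clonotypes of WT TDLN 1, 3 and 4 took 4.13%, 4.40% and 0.783%, so the groups also did not overlap without the top TRAV16 clone. By number the picture differed, since TRAV16 made up 11 of 72, 12 of 68 and 13 of 76 clonotypes of 0.1% or more in KO TDLN 1, 2 and 3, and 10 of 47, 9 of 91 and 4 of 51 in WT TDLN 1, 3 and 4, where the groups overlap. Without clonotypes found under more than 1 library letter (a letter in the library names is shared by 1 TDLN and 1 tumor library), TRAV16 took 5.47%, 10.7% and 34.2% of KO and 3.58%, 4.17% and 0.899% of WT reads. The log2 fold change of TRAV16 was 1.81 in the timed-out libraries alone and 2.32 without KO TDLN 3 and WT TDLN 3.

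The other leading V segments of KO varied widely between libraries of a genotype. TRAV3-3 took 32.2%, 37.1% and 6.02% of KO and 3.32%, 18.7% and 3.34% of WT reads (log2 fold change 1.57, edgeR adjusted p = 0.911). TRAV7-6 was at 26.9% in KO TDLN 3 and under 1% in the other KO libraries, against 3.17%, 7.95% and 0.360% in WT. TRAV14-2 took 21.3%, 5.37% and 0.888% of KO and 6.79%, 10.5% and 0.196% of WT reads. All 3 of these segments overlapped between genotypes.

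TRAV6-7 and TRAV7-2 had the highest mean shares in WT, each through 1 library. TRAV6-7 took 0.442%, 4.75% and 0.225% of KO TDLN 1, 2 and 3, against 0.00972%, 5.10% and 80.8% of WT TDLN 1, 3 and 4. TRAV7-2 took 2.27%, 0.288% and 0.497% of KO and 54.8%, 0.126% and 0.310% of WT reads. Their log2 fold changes were -3.99 and -4.17 (edgeR adjusted p = 0.911 for each), and both overlapped between the groups.

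TRAV1 was the sole V segment with an unadjusted edgeR p under 0.05 (1 of 47, 2.13%). It had 0, 4 and 0 reads in KO TDLN 1, 2 and 3, and shares of 1.00%, 5.36% and 0.152% in WT TDLN 1, 3 and 4. The edgeR p was 0.0279 and the adjusted p 0.911, so no V segment passed the test (0 of 47, 0%), whereas DESeq2 called TRAV1 lower in KO with an adjusted p of 0.0131. This segment depends on the frame filter, because out-of-frame TRAV1 reads were present in KO TDLN 3. Counted over all TRA reads of any frame, TRAV1 took 0.120%, 0.00540% and 4.23% of KO and 5.02%, 4.65% and 0.140% of WT libraries, and the groups overlapped. The other V segments without overlap, named after their values were seen, were TRAV3-4 and TRAV13-2, higher in KO libraries, and TRAV7-4 and TRAV6-5, lower in KO libraries. Of these, TRAV7-4 took 0.566%, 0.358% and 0.314% of KO and 4.24%, 11.7% and 1.23% of WT reads (log2 fold change -3.79, edgeR adjusted p = 0.911). The TRAV7-4 groups overlapped with the TRAJ7 frame as deposited, at 0.568%, 0.357% and 0.315% in KO and 4.53%, 0.228% and 3.62% in WT. They also overlapped without clonotypes found under more than 1 letter, at 0.810%, 1.55% and 1.02% in KO and 12.6%, 0.643% and 0.899% in WT. TRAV13-2 overlapped over reads of any frame and with the frame as deposited, and TRAV6-5 over reads of any frame and without the shared clonotypes.

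**Figure D2:**
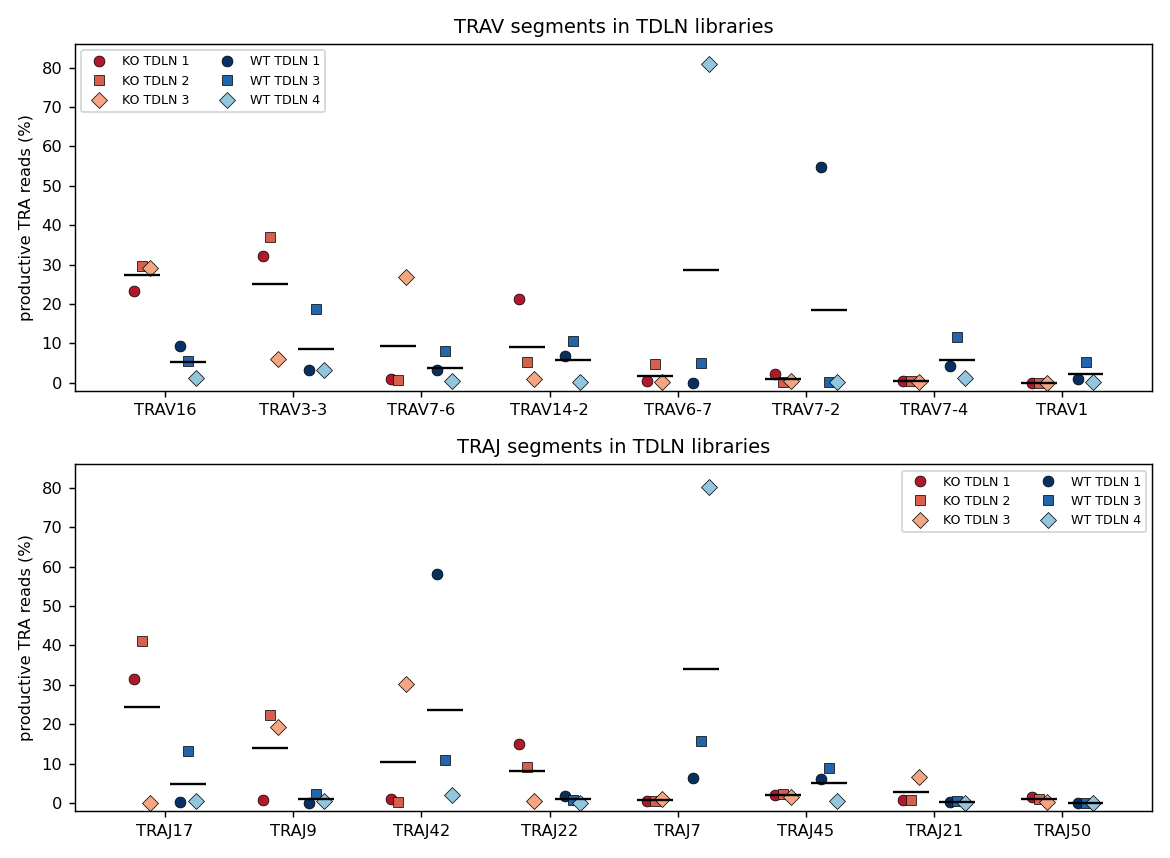
Percent of productive TRA reads for 8 TRAV (top) and 8 TRAJ segments (bottom). Each symbol is 1 TDLN library, with KO in red to the left of WT in blue, and each line is the mean of 3 libraries. The KO symbols of TRAV16 lie between 23.2% and 29.6%, above all WT symbols, and the KO symbols of TRAJ7 lie under 1%, below all WT symbols.

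TRAJ7 reads were scarce in KO libraries and present in every WT library. The segment took 0.462%, 0.571% and 0.938% of reads in KO TDLN 1, 2 and 3, against 6.46%, 15.8% and 80.2% in WT TDLN 1, 3 and 4. Every WT library was above every KO library, with means of 0.657% ± 0.250 in KO and 34.1% ± 40.1 in WT (SD, n = 3 each). The log2 fold change of KO over WT was -5.70, with an edgeR p of 0.0608 and an adjusted p of 0.917 over 43 TRAJ segments. TRAJ7 was the 1 segment of the 43 (2.33%) with every KO library below every WT library. Its log2 fold change was -4.43 in the timed-out libraries alone and -6.39 without KO TDLN 3 and WT TDLN 3.

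The TRAJ7 clones of the WT libraries differed from each other. The largest used TRAV6-6 in WT TDLN 1 (3.05%), TRAV7-4 in WT TDLN 3 (11.3%) and TRAV6-7 in WT TDLN 4 (77.5%), as printed above. With the largest TRAJ7 clonotype of each library left out, TRAJ7 took 0.294%, 0.238% and 0.372% of KO and 3.40%, 4.45% and 2.62% of WT reads, again without overlap. In WT TDLN 4 the pair of TRAV6-7 with TRAJ7 took 79.3% in 71 clonotypes. The 2.62% left there thus includes smaller clonotypes of the same pair, and whether these are variants of the largest was not tested. TRAJ7 clonotypes of 0.1% or more numbered 2 in each of the 3 KO libraries and 4, 2 and 6 in WT TDLN 1, 3 and 4.

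The productive TRAJ7 share depends on how the reading frame is judged. As deposited, nearly all TRAJ7 entries are called out of frame, and TRAJ7 then took 0%, 0.0717% and 0.0654% of KO and 0.00649%, 0.00490% and 0.127% of WT reads, with no separation. Over all TRA reads of any frame, a share that needs no frame rule, it was 0.367%, 0.547% and 0.884% in KO and 5.71%, 13.7% and 78.5% in WT. With clonotypes found under more than 1 library letter left out, the shares were 0.662%, 1.94% and 3.07% in KO and 13.7%, 0.537% and 81.3% in WT, so the groups overlapped.

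The J segments with the largest mean shares in KO were TRAJ17, TRAJ9, TRAJ42 and TRAJ22. TRAJ17 took 31.5%, 41.3% and 0.0549% of KO and 0.328%, 13.3% and 0.505% of WT reads. TRAJ9 was at 0.699%, 22.3% and 19.2% in KO and at 0.00486%, 2.17% and 0.562% in WT (log2 fold change 3.95, edgeR adjusted p = 0.917). It overlapped, since KO TDLN 1 lay below WT TDLN 3. TRAJ42 was at 1.11%, 0.320% and 30.2% in KO and at 58.2%, 10.8% and 2.11% in WT. TRAJ22 took 14.9%, 9.23% and 0.611% of KO and 1.83%, 0.885% and 0.0632% of WT reads. None of these 4 separated the groups.

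TRAJ45, which has the third highest mean share in WT, took 2.13%, 2.24% and 1.51% of KO and 6.01%, 8.78% and 0.455% of WT reads. TRAJ52 was the sole J segment with an unadjusted edgeR p under 0.05 (1 of 43, 2.33%). It took 0.748%, 0.255% and 0% of KO reads and was at 2 reads in all in WT (edgeR adjusted p = 0.917, unadjusted 0.0436). No J segment passed the adjusted threshold (0 of 43, 0%). Every KO library was above every WT library for 4 of 43 TRAJ segments (9.3%), which were TRAJ21, TRAJ37, TRAJ44 and TRAJ50, named after their values were seen. TRAJ50 was at 1.47%, 1.01% and 0.269% in KO and at 0.0814%, 0% and 0% in WT. Without clonotypes found under more than 1 letter TRAJ50 was at 0.216%, 2.06% and 0.786% in KO and at 0.251%, 0% and 0% in WT, so the groups overlapped, as did those of TRAJ21 and TRAJ44. TRAJ37 was at 0.840%, 0.853% and 0.392% in KO and at 0.0267%, 0.0619% and 0.0948% in WT. With the TRAJ7 frame as deposited TRAJ37 was at 0.844%, 0.857% and 0.395% in KO and at 0.0286%, 0.0735% and 0.477% in WT, and TRAJ37 and TRAJ44 both overlapped.

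V-J pairs were mostly private to a library. Of 511 pairs seen in the 6 libraries, 418 had 3 reads or more, 308 were found in 1 library and 2 in all 6. The effective number of pairs was 14.3, 13.4 and 15.8 in KO TDLN 1, 2 and 3, against 8.56, 34.4 and 3.46 in WT TDLN 1, 3 and 4. Means were 14.5 ± 1.23 in KO and 15.5 ± 16.6 in WT (SD, n = 3 each, exact p = 1.0). As with clonotypes, the KO values sat close together inside the WT range. The 5 largest pairs of each library took 73.6%, 71.4% and 70.8% of KO and 74.1%, 43.3% and 87.5% of WT reads.

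Pairs that led in several libraries were few. TRAV3-3 with TRAJ17 was the largest pair of KO TDLN 1 (31.0%), KO TDLN 2 (35.8%) and WT TDLN 3 (13.0%), and took 0.00499% of KO TDLN 3, 0.0729% of WT TDLN 1 and 0% of WT TDLN 4. TRAV16 with TRAJ9 was the second pair of KO TDLN 2 (21.6%) and KO TDLN 3 (18.9%), was at 0% in KO TDLN 1, and took 0%, 2.13% and 0.310% of WT TDLN 1, 3 and 4. TRAV7-6 with TRAJ42 led KO TDLN 3 at 26.7% and took 0.561% and 0.231% of the other KO libraries, against 3.17%, 7.09% and 0.360% of the WT libraries. TRAV16 with TRAJ32 took 15.7%, 0.0143% and 0.0948% of KO and 1.34%, 0.867% and 0.158% of WT reads. All 4 pairs overlapped between the genotypes, with edgeR adjusted p between 0.496 and 0.846.

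The leading WT pairs were each strong in 1 library. TRAV6-7 with TRAJ7 took 0%, 0.135% and 0% of KO reads, against 0.00365%, 4.18% and 79.3% of WT TDLN 1, 3 and 4. TRAV7-2 with TRAJ42 had 1 read in each KO library and took 54.6%, 0.126% and 0% of WT TDLN 1, 3 and 4. TRAV7-4 with TRAJ7 took at most 0.00317% of a KO library, against 0.00243%, 11.5% and 0.505% of WT TDLN 1, 3 and 4. All 3 pairs overlapped between the genotypes. They had edgeR adjusted p of 0.323 each.

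The 301 V-J pairs tested include some with reads in tumor libraries only, such as TRAV7-2 with TRAJ7. Such pairs could not be called or separate the groups here. No V-J pair passed the edgeR test with Benjamini-Hochberg adjustment (0 of 301, 0%), and 3 had an unadjusted p under 0.05 (0.997%). They were TRAV7-2 with TRAJ42, TRAV1 with TRAJ4 and TRAV14-2 with TRAJ31, each with an edgeR adjusted p of 0.323. Each was high in 1 WT library. TRAV1 with TRAJ4 and TRAV14-2 with TRAJ31 had 0 reads in the 3 KO libraries and in the other WT libraries, and took 5.0% and 6.66% of WT TDLN 3. Every KO library was above every WT library for 5 of 301 pairs (1.66%) and below for 1 (0.332%), all named after their values were seen. The 5 were TRAV16 with TRAJ37, TRAV16 with TRAJ33, TRAV14-2 with TRAJ22, TRAV14-1 with TRAJ22 and TRAV12-2 with TRAJ45. Some separated only at very low shares. TRAV12-2 with TRAJ45 was at 0.0025% in KO TDLN 3 and 0.00206% in WT TDLN 3. TRAV16 with TRAJ37 was at 0.00247% in KO TDLN 1, and TRAV14-1 with TRAJ22 at 0.00494% and 0.00792% in KO TDLN 1 and 2. With 0 reads of these pairs, WT TDLN 4 allows shares of up to 0.0190%, above each of these values. TRAV14-2 with TRAJ22 was at 5.32%, 2.74% and 0.110% in KO and at 0%, 0% and 0.0632% in WT. The 1 lower pair was TRAV6-2 with TRAJ7, at 0 reads in the 3 KO libraries and at 1.14%, 0.00206% and 0.0379% in WT.

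**Figure D3:**
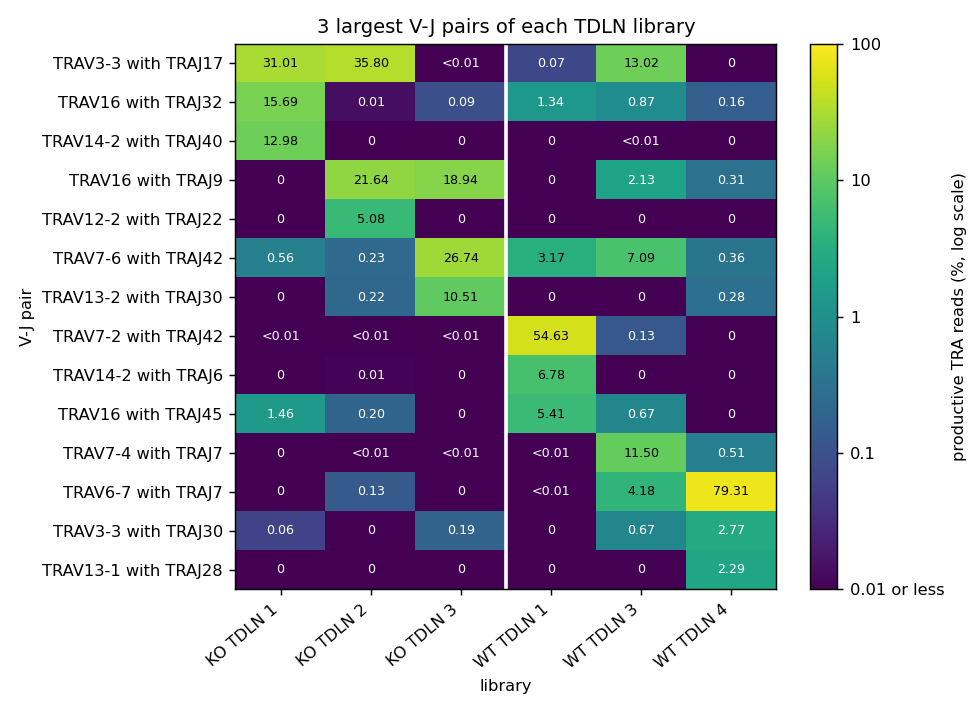
Percent of productive TRA reads for the 3 largest V-J pairs of each TDLN library (colour on a log scale, values printed in the cells). KO libraries stand left and WT libraries right of the white line. TRAV3-3 with TRAJ17 is high in 2 KO libraries and 1 WT library, and most other pairs are high in 1 library.

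At the level of amino acids, few CDR3 sequences by number crossed libraries. Of all TRA CDR3 amino acid sequences in TDLN, 2887 were found in 1 library, 87 in 2, 13 in 3, 1 in 4 and 1 in 5. These counts have no lower limit of reads. Between 52.3% and 68.2% of the clonotypes of a library were single reads. Folding 1-base variants into clonotypes at least 100 times larger removed between 33.3% and 54.4% of them. Many of the sequences found in 1 library may therefore be read errors, which was not tested. The sequence in 4 libraries, counted with any V segment, was in all 3 KO libraries at 5.29%, 2.63% and 0.604%, and in WT TDLN 4 at 0.0632%. In KO TDLN 1 and KO TDLN 2 its main clonotype joins TRAV14-2 to TRAJ22. In KO TDLN 3 that pair took 0.110% in all, less than the CDR3 itself, so part of the CDR3's reads there were assigned to another V segment. The same nucleotide sequence encoded it in that clonotype of KO TDLN 1 and of KO TDLN 2. That clonotype was also found in KO TDLN 3, WT TDLN 4, KO tumor 2 and 3 and WT tumor 2 and 3. The leading CDR3 of KO TDLN 2, a TRAV3-3 with TRAJ17 sequence at 35.5%, took 2.67% of KO TDLN 1 and had 0 reads in the other TDLN libraries. It too had the same nucleotide sequence in both libraries, and that clonotype was also found in KO tumor 3, WT tumor 3 and WT tumor 4. Exact sharing crossed genotypes in TDLN as well. The TRAV7-6 with TRAJ42 clonotype at 16.1% of KO TDLN 3 was found with the same bases in WT TDLN 3 and WT tumor 3. Over all nucleotide forms its CDR3 took 0.722% of WT TDLN 3.

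Near-identical large clones occurred within and across genotypes. In the TRAV3-3 with TRAJ17 set printed above, the KO TDLN 1 and KO TDLN 2 sequences took 25.7% and 35.0% and differed by 1 amino acid. The shared TRAV16 with TRAJ32 CDR3 took 15.1% of KO TDLN 1 and 1.31% of WT TDLN 1 in its printed nucleotide forms, which differ at 1 base. The printed nucleotide forms of the TRAV16 with TRAJ9 CDR3 shared by KO TDLN 2 and WT TDLN 3 took 20.99% and 1.19%, with 2 bases different. Over all its nucleotide forms this CDR3 took 21.3% of KO TDLN 2, 2.10% of WT TDLN 3 and 0.284% of WT TDLN 4. The TRAJ7 clonotypes of WT TDLN 4 (77.5%) and WT TDLN 1 (3.05%) differed by 1 amino acid. In WT TDLN 1 the printed TRAV7-2 with TRAJ42 clonotypes of 44.8% and 8.61% differ in a single base and encode 1 loop.

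CDR3 length did not separate the genotypes. Weighted by reads it averaged 14.5, 14.7 and 14.2 amino acids in KO TDLN 1, 2 and 3, against 14.8, 14.4 and 14.8 in WT TDLN 1, 3 and 4 (exact p = 0.5). CDR3s of 14 amino acids took 57.8%, 49.1% and 12.6% of KO and 8.82%, 32.5% and 6.24% of WT reads. Those of 15 took 4.36%, 16.6% and 46.7% of KO and 69.8%, 42.6% and 86.2% of WT reads. The length with most reads was 14 in KO TDLN 1 and 2, and 15 in KO TDLN 3 and in the 3 WT libraries. It matched the length of the largest clonotype in every library but WT TDLN 3, whose largest clonotype has 14 amino acids. Counting each clonotype of 0.1% or more once, the mean length was 13.97 ± 0.123 in KO and 14.1 ± 0.158 in WT (SD, n = 3 each, exact p = 0.4).

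Net charge, counted over the whole CDR3 as lysines and arginines minus aspartates and glutamates, did not overlap between the genotypes when weighted by reads. It averaged 0.290, 0.453 and 0.106 in KO TDLN 1, 2 and 3, against 0.0287, 0.0975 and -0.730 in WT TDLN 1, 3 and 4. All KO values were above all WT values, by a narrow margin between KO TDLN 3 and WT TDLN 3 (difference of means 0.484, exact p = 0.1, the smallest possible, adjusted p = 1.0). With the TRAJ7 frame as deposited the groups overlapped, at 0.291, 0.451 and 0.104 in KO and 0.0679, 0.202 and 0.328 in WT, with a difference of 0.0828 (exact p = 0.6). Without clonotypes found under more than 1 letter they overlapped too, at 0.167, -0.139 and 0.311 in KO and 0.103, 0.141 and -0.745 in WT, with a difference of 0.280 (exact p = 0.5). The difference was 0.220 without WT TDLN 4, 0.308 in the timed-out libraries alone and 0.722 without KO TDLN 3 and WT TDLN 3. Loops with a net charge below 0 took 6.12%, 8.96% and 22.2% of KO and 15.8%, 34.1% and 85.8% of WT reads, and these shares overlapped. Without the largest clonotype of each library the charge was 0.390, 0.698 and -0.0775 in KO and 0.0519, 0.112 and 0.202 in WT, and the groups overlapped (exact p = 0.5). By clonotypes of 0.1% or more, each counted once, it was 0.247 ± 0.0855 in KO and 0.228 ± 0.0624 in WT (SD, n = 3 each, exact p = 0.6).

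Hydropathy, a mean score that rises with water-repelling amino acids, was taken over the CDR3 without its first 3 and last 4 amino acids. By reads it was -1.15 ± 0.103 in KO and -1.53 ± 0.409 in WT (SD, n = 3 each, exact p = 0.2). The KO libraries had -1.06, -1.12 and -1.26, and the WT libraries -1.39, -1.21 and -1.99, so WT TDLN 3 lay inside the KO range. Each amino acid CDR3 of 0.1% or more was encoded by 1.03, 1.02 and 1.03 nucleotide sequences in KO and by 1.02, 1.04 and 1.00 in WT (exact p = 0.8).

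**Figure D4:**
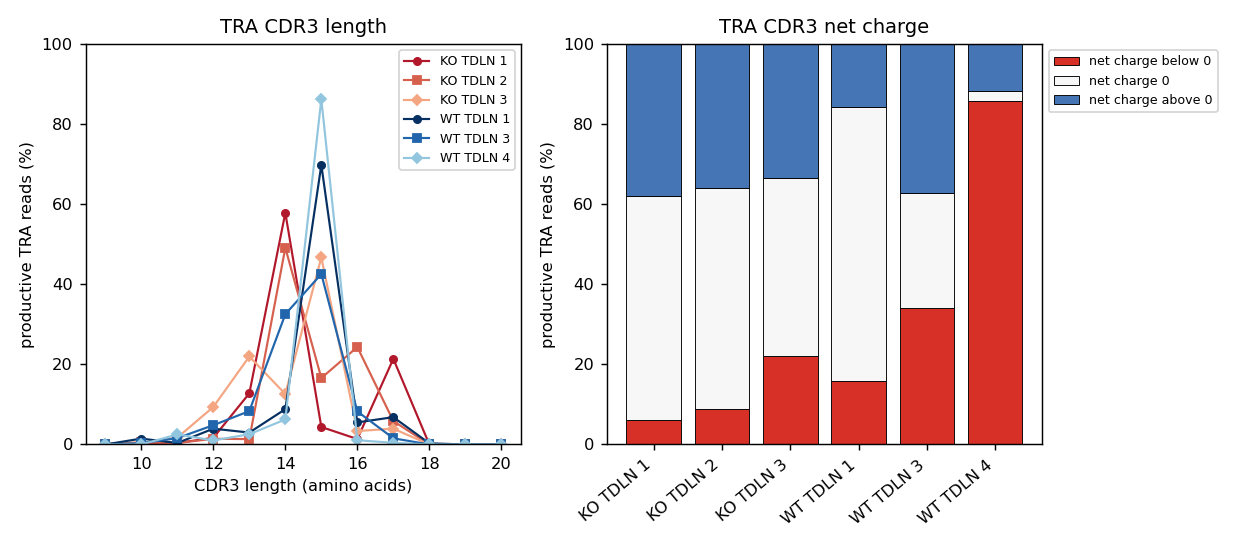
Left, percent of productive TRA reads by CDR3 length in amino acids, 1 line per TDLN library. Right, stacked bars of the percent of reads by the sign of the CDR3 net charge, with KO libraries left of WT libraries. WT TDLN 4 stands out with 86.2% of reads at 15 amino acids and 85.8% at a net charge below 0.

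Overlap between TDLN libraries was low in both genotypes. By nucleotide clonotypes the Morisita-Horn index ranged between 0.000222 and 0.0721 in the 3 pairs of KO libraries, between 1e-06 and 0.0176 in the 9 pairs of a KO with a WT library, and between 2e-05 and 0.000105 in the 3 pairs of WT libraries. The highest was KO TDLN 1 with KO TDLN 2, which shared 31 clonotypes, and next came KO TDLN 3 with WT TDLN 3 at 0.0176, which shared 5. By amino acid CDR3 the index reached 0.0714 among KO pairs, 0.0391 between genotypes and 0.000752 among WT pairs. The authors' matrix lists 20 to 157 shared TRB sequences for KO pairs, 11 to 85 for pairs of both genotypes and 8 to 47 for WT pairs. Pairs share libraries, so no test was made.

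**Figure D5:**
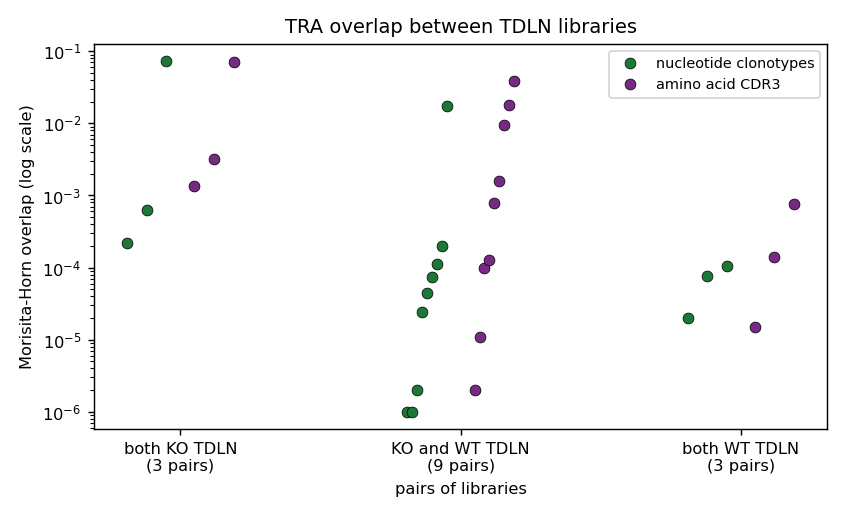
Morisita-Horn overlap of TRA (log scale) for each pair of TDLN libraries, by nucleotide clonotypes and by amino acid CDR3. The KO pair of libraries 1 and 2 stands highest in both, at 0.0721 and 0.0714.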

How the data were processed

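PolyA RNA was turned into libraries with primers for T cell receptor genes, per the labels' protocols, and the submitters' processing notes name the build GRCm39. Per the file headers, the TRA table holds TRUST4 reports (version not given in the sources used here), with a deposited count of reads per rearrangement and a fraction of the library's TRA reads, which the authors computed. A sheet of the authors' metrics gives counts of different CDR3 sequences, fractions of a chain taken by top clones, and deposited score columns for the number of TRA sequences and the top TRB share. How that sheet was made is not stated.

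Counts were used as deposited. Entries that were out of frame, held a stop codon or contained an undetermined residue were dropped. TRAJ7 frames were judged with 1 base added at the end. Duplicated V copies were pooled under 1 name. Of 48 V names, 41 were found among RefSeq mouse genes, whose build differs, so no coordinates are given. CDR3 composition by clonotypes used those of 0.1% or more. Single values had exact two-sided permutation tests (scipy 1.17.1). Segments and pairs were tested with edgeR 4.0.16 (R 4.3.3) quasi-likelihood fits over all 12 libraries in 4 groups, with the productive total as the scale, keeping features with at least 10 reads over the libraries and at least 0.1% of 1 library, at an adjusted p of 0.05. The fits were also run on simulated counts with known changes, and the outcome is not given here. Alternatives were DESeq2 1.42.0, limma 3.58.1 on log2 of percent plus 0.1, TMM scaling, other filters and frames, and leaving out libraries or clonotypes.

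Named segments and pairs are the 4 with the highest mean share in each genotype and those with an unadjusted p under 0.05, up to the 5 smallest. Named clonotypes are among the 5 largest of a library or differ by at most 1 amino acid from a clonotype of 1% or more elsewhere. Members and lists were chosen with earlier results of these data known.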

Additional observations from a re-analysis of the deposited data

How the results depend on the processing

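Of the 17 single values, 6 kept their direction under all alternatives and 11 did not. None of the 17 could pass a threshold in this design, so direction says little. Values are KO minus WT. With the TRAJ7 frame as deposited the differences turned to -11.4 effective clonotypes, -2.09 points in clonotypes under 1%, 2.11 points for the largest V-J pair, 0.126 amino acids of length by reads, -0.0164 charge by clonotypes and -0.0102 nucleotide sequences per CDR3. With clonotypes under more than 1 letter left out they turned to -8.06 points in clonotypes of 10% or more, 0.577 in those of 1% to 10% and 10.8 effective pairs. Without KO TDLN 3 and WT TDLN 3 they turned to -6.31 and 0.336 points in those size classes, 7.84 effective pairs, -0.0328 charge by clonotypes, -49.0 TRB sequences and -3.85 points in the top 10 TRB share. With the largest clonotype of each library left out they turned to -16.1 effective clonotypes, 14.5 points for the largest pair, 0.222 amino acids and -0.00604 sequences per CDR3. In the timed-out libraries alone they turned to -11.0 effective clonotypes, -0.870 points under 1%, 0.00532 amino acids, -0.00623 sequences per CDR3 and -167.5 TRB sequences. With 1-base variants folded into clonotypes at least 100 times larger they turned to -0.441 effective clonotypes and -0.00550 sequences per CDR3, and with clonotypes under 0.01% left out to -0.126 effective clonotypes. Without single libraries the difference ranged between -8.38 and 12.8 effective clonotypes, -10.04 and 16.7 points in clonotypes of 10% or more, -16.8 and 3.12 in those of 1% to 10%, -6.96 and 8.50 effective pairs, -0.0287 and 0.0541 charge by clonotypes, -0.00480 and 0.0131 sequences per CDR3, -145.0 and 439.0 TRB sequences, and -7.72 and 7.53 points in the top 10 TRB share. The cause was not tested.

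By edgeR no segment or pair had an adjusted p under 0.05 in any setting run. DESeq2 called 1 TRAV segment (TRAV1, log2 fold change -9.13), 0 TRAJ segments and 0 pairs, with 4, 1 and 12 at an unadjusted p under 0.05, and limma called 0, 0 and 0, with 4, 2 and 10. Log2 fold changes of KO over WT turned as follows. In the timed-out libraries TRAV7-6 was -2.88, TRAV6-7 0.0219 and TRAV7-6 with TRAJ42 -3.70. Without KO TDLN 3 and WT TDLN 3, TRAV7-6 was -1.23 and its pair with TRAJ42 -2.16. With clonotypes under more than 1 letter left out TRAV3-3 was -0.17 and TRAJ45 0.30. TRAJ7 was 0.0855 with its frame as deposited. TRAV7-6 with TRAJ42 was -0.29 by limma and -0.19 with TMM scaling, and TRAV16 with TRAJ32 was -0.0115 by limma. Without single libraries TRAV7-6 ranged between -2.34 and 2.42, TRAV14-2 between -0.90 and 1.40, TRAV7-2 between -5.55 and 2.23, TRAJ42 between -5.06 and 0.70, TRAV7-6 with TRAJ42 between -3.16 and 2.38 and TRAV16 with TRAJ32 between -3.85 and 3.36. TRAV16 stayed between 1.87 and 3.02.

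With the replicate number as a block, the difference was -5.75 effective clonotypes and -0.000529 sequences per CDR3, and the log2 fold changes were -0.0199 for TRAV7-6, -0.95 for TRAV14-2, 0.42 for TRAV6-7, -0.61 for TRAJ17, -0.24 for TRAV3-3 with TRAJ17 and -0.29 for TRAV7-6 with TRAJ42. It changed no call. Deviations correlated at 0.0830 for number 1 and -0.0596 for number 3 across 275 V-J pairs. Libraries of different numbers correlated between -0.102 and 0.0843. Because most V-J pairs were found in a single library, these correlations cannot decide whether the numbers pair the libraries. WT TDLN 4, with 15828 productive reads, sets the limit of 0.0190% for a sequence not seen.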

Other observations

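Non-productive TRA reads made up 20.6%, 14.8% and 19.1% of KO TDLN 1, 2 and 3, against 11.7%, 13.4% and 7.34% of WT TDLN 1, 3 and 4, with no overlap. Counted over J segments other than TRAJ7 the shares were 20.7%, 14.9% and 19.2% in KO and 12.4%, 15.5% and 14.6% in WT, where the groups overlap. With the TRAJ7 frame as deposited they were 21.0%, 15.3% and 19.8% in KO and 17.4%, 27.1% and 81.6% in WT. The cause was not tested.

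Clonotypes found under more than 1 library letter took 30.2%, 77.6% and 69.5% of reads in KO TDLN 1, 2 and 3, against 67.5%, 58.9% and 2.33% in WT TDLN 1, 3 and 4. Of the 36 pairs of a TDLN with a tumor library, 4 had a Morisita-Horn overlap above 0.1. They were KO TDLN 1 with WT tumor 2, KO TDLN 3 with WT tumor 3, WT TDLN 1 with WT tumor 4 and WT TDLN 3 with KO tumor 3. None of them joined libraries of the same letter.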
